A study of Rattus norvegicus with 16 samples.

Results

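The supraspinatus is a tendon of the rotator cuff of the shoulder, and its 4 libraries were set against the 12 libraries of the 3 other tendons in the series. All samples were total RNA from Sprague Dawley rats, with 4 libraries each from the supraspinatus, Achilles, patellar and forepaw flexor tendons. The labels give no age, sex, treatment or genotype for any library, and no group is a treated one. They do not say that libraries came from separate animals, so p-values measure the spread between these samples. A gene counted as set apart when all 4 supraspinatus libraries lay above, or all 4 lay below, all 12 others in CPM, a gene's counts scaled to a common library size after TMM normalization. The table held 23285 genes, of which 16948 had enough counts to be tested, and 3252 of these were set apart. Of the genes tested, 2264 lay above (13.4%) and 988 lay below (5.83%). The levels chose these genes, so their distance from the other tendons is a description. The edgeR counts for gene lists, and an adjusted p beside a single gene, come from the same levels and are not independent support.

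Skeletal muscle fibres pack contractile proteins into sarcomeres, and the triads beside them couple the nerve signal to calcium release. Fast fibres use fast myosins and draw heavily on glycolysis, while slow fibres use slow myosins. Tendon cells lay down collagen I fibres with small proteoglycans. Where a tendon enters bone it passes through fibrocartilage, whose cells make collagen II and other cartilage proteins. A tendon meets muscle at its other end, at the myotendinous junction.

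Library totals ran from 63397591 to 102491699 counts. TMM factors, which rescale each library to its bulk of genes, ran from 0.731 to 0.876 in supraspinatus and from 1.01 to 1.16 in the others, so the scaling bears on every level below. With plain library totals 1055 genes lay above (6.22%) and 3009 lay below (17.8%), and the median log2 difference over all genes moved by -0.36. Under every one of the 4 scalings tried 1055 genes lay above (6.22%) and 973 lay below (5.74%). The libraries Achilles 1 and patellar 1 stood apart within their tendons. Achilles 1 was the highest Achilles library for 13 of 15 Schwann cell genes and all 15 adipocyte genes tested. It was the lowest for 75 of 90 muscle genes, and patellar 1 was the highest patellar library for 73 of them. Without Achilles 1 and patellar 1, 2680 genes lay above and 1425 lay below.

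Most muscle genes lay above the other tendons, some of them narrowly. The 5 muscle lists held 99 symbols, of which 90 were tested and 65 lay above, with none below. Their counts made up 19.6, 15.3, 17.1 and 24.0% of the supraspinatus libraries 1 to 4. The flexor libraries held 8.58, 5.12, 2.30 and 6.38%, the Achilles libraries 0.144, 1.83, 0.487 and 1.77%, and the patellar libraries 4.59, 0.261, 0.117 and 0.654%. The lowest supraspinatus share was therefore above the highest share elsewhere, that of flexor 1. Supraspinatus averaged 19.0% ± 3.79 (SD, n = 4) and the others 2.69% ± 2.82 (SD, n = 12), a difference of 16.3 percentage points. No test is given for this share, because the same levels chose the genes. The difference was 16.3 points also without Achilles 1 and patellar 1. In bulk tissue, fewer cells of a type and less RNA per cell cannot be told apart, here and in the results that follow.

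**Figure D1:**
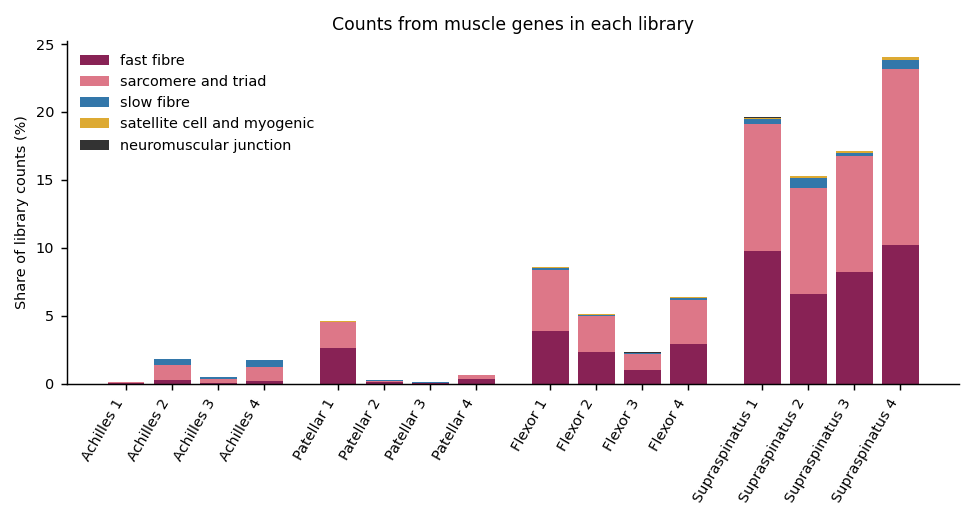
Share of each library's counts (%) from the 5 muscle gene lists, stacked by list, for the 16 libraries. The supraspinatus bars reach 15.3 to 24.0%, and the next highest bar is flexor 1 at 8.58%.

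By edgeR's quasi-likelihood test against the average of the 3 other tendons, 27.4% of all genes tested were higher in supraspinatus and 28.9% were lower at an adjusted p under 0.05. Of the 90 muscle genes 85 were higher and none was lower by this test. The count lower was also 0 at an unadjusted p under 0.05 and with DESeq2 and limma-voom. The median log2 fold change of the muscle genes was 3.70, beside -0.06 over all genes tested. Against each tendon separately, 75 of the 90 were higher than in Achilles, 86 than in patellar and 27 than in flexor. The shares over all genes tested were 24.7%, 27.5% and 24.3%. All 15 fast fibre genes tested lay above, as did 34 of 43 sarcomere and triad genes.

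The 5 genes that mark the comparison are shown by their proximal promoters, 250 bases up to the start of the gene. Of these, 2 stand in the muscle lists and 3 do not. The sequences are from RefSeq, build GRCr8, 5′ to 3′ on the gene's strand, and the capitals mark E-boxes (CANNTG), which bind myogenic factors such as MyoD, CArG boxes, which bind serum response factor, and MEF2 sites. They lie at chr19:68784195-68784444 for Acta1 (minus strand), chr10:52421898-52422147 for Myh4 (plus), chr11:31140865-31141114 for Chodl (plus), chr19:50285376-50285625 for Zdhhc1 (minus) and chr11:57597990-57598239 for Abi3bp (minus).
Acta1: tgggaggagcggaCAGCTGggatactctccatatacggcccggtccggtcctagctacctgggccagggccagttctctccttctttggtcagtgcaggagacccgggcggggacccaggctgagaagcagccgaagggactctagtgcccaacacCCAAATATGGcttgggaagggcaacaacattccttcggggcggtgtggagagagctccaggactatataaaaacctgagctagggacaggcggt
Myh4: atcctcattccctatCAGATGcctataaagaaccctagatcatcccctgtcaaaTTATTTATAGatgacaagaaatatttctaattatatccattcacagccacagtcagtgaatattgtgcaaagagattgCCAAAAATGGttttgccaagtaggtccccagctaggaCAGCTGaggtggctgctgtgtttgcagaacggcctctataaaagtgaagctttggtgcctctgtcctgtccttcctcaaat
Chodl: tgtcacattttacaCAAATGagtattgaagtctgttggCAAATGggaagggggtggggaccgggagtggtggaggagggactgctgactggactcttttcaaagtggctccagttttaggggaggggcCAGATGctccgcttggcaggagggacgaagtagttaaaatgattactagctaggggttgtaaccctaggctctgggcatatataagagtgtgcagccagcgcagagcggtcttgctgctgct
Zdhhc1: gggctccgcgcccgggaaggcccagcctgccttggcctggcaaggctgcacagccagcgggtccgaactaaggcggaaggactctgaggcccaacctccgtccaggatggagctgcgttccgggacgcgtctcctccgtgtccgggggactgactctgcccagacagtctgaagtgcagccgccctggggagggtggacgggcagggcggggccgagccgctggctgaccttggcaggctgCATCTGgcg
Abi3bp: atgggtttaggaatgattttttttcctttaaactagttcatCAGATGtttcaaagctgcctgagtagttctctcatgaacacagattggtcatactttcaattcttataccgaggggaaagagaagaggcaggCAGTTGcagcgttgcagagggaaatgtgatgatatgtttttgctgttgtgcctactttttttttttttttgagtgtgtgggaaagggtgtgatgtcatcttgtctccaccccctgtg
The Acta1 window holds an E-box that begins 237 bases before the start and a CArG box at 94 bases. The Myh4 window holds E-boxes at 235 and 81 bases, a CArG box at 118 and a MEF2 site at 196. The Chodl, Zdhhc1 and Abi3bp windows hold E-boxes alone among the 3 motifs. Of the 65 muscle genes above, 52 had a promoter in the table, and motifs were searched on both strands. E-boxes were in 78.8% of these 52, CArG boxes in 7.69% and MEF2 sites in 19.2%. Over all 69 measured muscle genes with a promoter, which include these 52, the shares were 81.2%, 7.25% and 18.8%. Over the 11434 tested genes with a promoter the shares were 58%, 1.18% and 1.5%. A match is a description of letters and not a site shown to be bound.

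Acta1 (ENSRNOG00000017786) encodes skeletal muscle actin, the thin filament protein. It stood at 53992, 39537, 48252 and 82586 CPM in supraspinatus 1 to 4. The highest of the 12 others was flexor 1 at 17450 CPM, their median was 4334 and the lowest was patellar 3 at 108. The groups do not overlap, and the flexor libraries came closest. The log2 fold change was 3.74 ± 0.82 (SE) against the average of the others.

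Myh4 (ENSRNOG00000049695), the fast IIb myosin heavy chain, gave a similar order. Its levels were 45736, 30648, 28585 and 43152 CPM in supraspinatus, against 3684 to 15366 in flexor, 37.0 to 7636 in patellar and 60.5 to 378 in Achilles. Reads of near-identical myosin heavy chains could be split between genes by the authors' counting. The fold change was largest against Achilles (log2 7.59, edgeR adjusted p = 4.3e-04) and smaller against patellar (4.03, edgeR adjusted p = 0.0096). Against flexor it was 1.93 with an edgeR adjusted p of 0.16, although no library overlapped. Acta1 likewise gave 2.35 against flexor with an edgeR adjusted p of 0.11. In all, 15 of 15 fast fibre genes were higher than in Achilles and than in patellar, and 4 were higher than in flexor. Of all genes tested, 24.7% were higher than in Achilles, 27.5% than in patellar and 24.3% than in flexor.

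Pvalb, the calcium buffer parvalbumin, was at 1872, 873, 2018 and 2139 CPM in supraspinatus and at 2.44 to 525 in the others. Casq1, the calcium store protein of fast fibres, was at 3237, 1984, 2682 and 3516 CPM, with flexor and patellar 1 next at up to 730. In both, supraspinatus 2 was the lowest of its tendon and still above every other library.

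Slow fibre genes followed another pattern. All 9 tested were higher by edgeR, where 27.4% of all genes were, yet 1 lay above every other library. That share of 11.1% was near the 13.4% over all genes. Myh7, the slow myosin heavy chain, was at 1291, 3856, 859 and 3248 CPM in supraspinatus. Achilles 2 to 4 held 1601, 250 and 1550 CPM, and Achilles 1 held 1.33. Patellar and flexor libraries stayed at 2.21 to 65.7, so that the overlap came from Achilles alone. Supraspinatus 2 and 4 were high and 1 and 3 lower. Myoz2, a Z-disc protein of slow fibres, was the member that lay above, at 146 to 709 CPM against at most 141, but not on library totals. None of the 9 passed against Achilles, while 9 passed against patellar and 4 against flexor. The shares of all genes higher in these comparisons were 24.7%, 27.5% and 24.3%.

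Neuromuscular junction genes divided as well. Of 10 tested 8 were higher and 4 lay above, beside 27.4% and 13.4% over all genes. Musk, the receptor kinase that organises the junction, was at 5.86, 5.74, 6.88 and 10.1 CPM against 0.369 to 4.22. Rapsn, which anchors acetylcholine receptors, was at 26.4 to 49.5 CPM against 4.65 to 15.2. The receptor subunits Chrne and Chrna1 were not set apart. Chrne, the adult epsilon subunit, was at 4.30 to 5.69 CPM in supraspinatus and at 3.98 to 15.7 in flexor. Chrna1, the alpha subunit, was at 4.26 to 11.4 CPM in supraspinatus and at 10.2 to 29.8 in flexor. For these subunits the flexor libraries were mostly the highest of the series.

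The satellite cell and myogenic list had 12 of 13 genes higher and 11 above, beside 27.4% and 13.4% over all genes. Pax7, the transcription factor of muscle stem cells, was at 3.42, 2.65, 3.36 and 5.74 CPM in supraspinatus, at most 1.88 in flexor and at most 0.353 elsewhere. It had no counts in Achilles 1, Achilles 3, patellar 2 and patellar 3, where 3 counts would be 0.0266 to 0.0425 CPM. Myod1, a factor that commits cells to muscle, was at 38.0 to 67.4 CPM against 0.0132 to 17.8. Myog, the differentiation factor myogenin, was at 10.8 to 24.3 CPM against 0.0797 to 7.28. None of Pax7, Myod1 and Myog passed against flexor alone (edgeR adjusted p = 0.26, 0.081 and 0.091).

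Some other myogenic members came closer to flexor. Myf5, an early myogenic factor, was at 5.81 to 10.4 CPM with flexor 1 at 5.35. Myf6, expressed in mature fibres, was at 73.2 to 169 CPM with flexor 1 at 63.6. Myh8, the perinatal myosin, was at 64.6 to 97.3 CPM with flexor 1 at 54.1. On library totals these 3 no longer lay above. Myh3, the embryonic myosin, was at 468 to 884 CPM in supraspinatus, and the next libraries were Achilles 2 at 215 and Achilles 4 at 196. Mef2c, a muscle transcription factor also used in other tissues, was at 540 to 914 CPM against 99.9 to 271.

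Genes of energy supply lay above with the muscle genes. All 27 oxidative phosphorylation genes tested lay above, although mitochondria are in nearly every cell type. Many of these genes have processed pseudogenes that could share reads. Their median log2 fold change was 1.65, and 27 passed against each of the other tendons separately, where 13.9% of all genes were higher in all 3 pairs. Sdha, of complex II, was at 721, 701, 591 and 1232 CPM against 205 to 436. Cox4i1, of complex IV, was at 334 to 614 CPM against 139 to 219. Atp5f1b, of the ATP synthase, was at 2957 to 6516 CPM against 827 to 2180. Supraspinatus 4, with the largest share of muscle genes, was the highest library for each of these 3. A link to that share was not tested.

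The 3 other tendons were also compared in these lists. Of the 27 oxidative phosphorylation genes 2 differed among Achilles, patellar and flexor by edgeR, where 55.1% of all genes did. Of the 90 muscle genes 67 differed.

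Of 20 glycolysis and glycogen genes 16 were higher, 12 lay above and none was lower by edgeR. Over all genes 27.4% were higher, 13.4% lay above and 28.9% were lower. Pfkm, the muscle form of phosphofructokinase, was at 1918 to 3228 CPM against 33.0 to 1314, and Aldoa, the muscle form of aldolase, at 8960 to 16335 against 578 to 4985. Ldha, the form of lactate dehydrogenase common in fast fibres, was at 896 to 1681 CPM against 292 to 565. Patellar 1 was the next highest library for Ldha, and flexor 1 for Pfkm and Aldoa.

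A further fit took the muscle level of each library as a covariate. The covariate was the mean log2 level of the fast fibre and sarcomere lists in each library. It ran from 9.54 to 10.4 in supraspinatus and from 2.97 to 8.47 in the others, so the ranges do not meet and the fit reaches beyond the data. It was built from the muscle genes themselves. No value with the covariate, here or below, therefore shows a difference apart from muscle content. With the covariate, 6% of genes were higher and 6.15% lower by edgeR. Of the muscle genes 4 were then higher and 8 lower. Of the oxidative phosphorylation genes 11 of 27 and of the glycolysis and glycogen genes 7 of 20 were still higher. The cartilage class had 2 higher and 1 lower, and the tendon class 5 higher and 1 lower. The part of the muscle share in the differences of other genes was not tested.

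**Figure D2:**
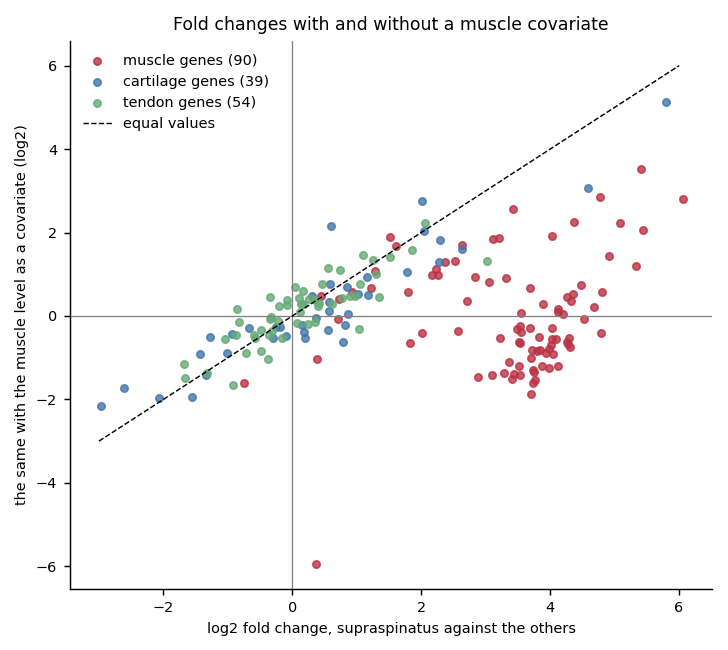
Each point is a gene of the muscle, cartilage or tendon class, with its log2 fold change of supraspinatus against the average of the others on the x axis and the same with the muscle level as a covariate on the y axis. Muscle genes move from a median of 3.70 to -0.26, while cartilage and tendon genes lie closer to the dashed line of equal values. The lowest point is Actc1, cardiac actin, at -5.94 with the covariate.

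The cartilage class did not move as a group. Of 39 genes tested 12 were higher and 9 lower by edgeR, 4 lay above and 2 lay below, which are shares of 10.3% and 5.13% beside 13.4% and 5.83% over all genes. Its median log2 fold change was 0.55. The 2 lists of the class differed. Of 26 cartilage matrix genes 10 were higher and 3 lower by edgeR, with a median of 0.58. Of 13 chondrocyte factors and signals 2 were higher and 6 lower, with a median of -0.26. The edgeR shares over all genes were 27.4% higher and 28.9% lower. Col2a1, Snorc, Scrg1 and Sox6 lay above, and Runx3 and Pth1r lay below.

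Col2a1 (ENSRNOG00000058560), the main collagen of cartilage, was at 2019, 4173, 195 and 669 CPM in supraspinatus 1 to 4. The 12 others ran from 9.19 to 114 CPM with a median of 45.1, and Achilles 2 was the highest. Every supraspinatus library was above them, but the 4 differed from each other widely, with 2 the highest and 3 the lowest. The log2 fold change was 5.80 ± 0.52 (SE). It was 5.12 with the muscle covariate (edgeR adjusted p = 0.019).

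Other cartilage matrix genes shared this order of libraries. Snorc, a cartilage membrane proteoglycan, was at 9.77, 13.1, 0.963 and 1.49 CPM against 0.0792 to 0.608. Col9a1, of the collagen on the surface of collagen II fibrils, was at 8.97, 11.3, 0.670 and 1.44 CPM, and the last pair fell within the others' range of 0.243 to 2.35. Col10a1, the collagen of hypertrophic cartilage, was at 1.52, 1.88, 0.447 and 0.890 CPM, against at most 0.590. In all of them supraspinatus 1 and 2 were high and 3 and 4 low, and the part of the amount of cartilage or bone tissue in each sample was not tested.

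The bone matrix gene Ibsp followed in part. It was at 30.6, 150, 1.51 and 23.1 CPM in supraspinatus and at 0.549 to 19.2 in the others. Mepe, a matrix protein of osteocytes, was instead even, at 7.26, 5.53, 9.20 and 6.34 CPM against at most 0.880. Mepe was the only 1 of 11 osteoblast and osteocyte genes tested to lie above, and 7 of the 11 were higher by edgeR. The shares over all genes were 13.4% above and 27.4% higher.

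Scrg1, a gene of cartilage-forming cells, was at 144, 142, 102 and 84.3 CPM, and flexor 3 came next at 68.0. Sox6, a partner of Sox9 in chondrocytes that is also used in muscle, was at 45.2, 34.1, 37.0 and 49.8 CPM, and flexor 3 came next at 27.8. Sox6 did not have the order of libraries seen in Col2a1, and supraspinatus 4 was its highest. On library totals Scrg1 no longer lay above.

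Sox9, the master regulator of chondrocytes, was no member. It was at 46.0 to 63.2 CPM in supraspinatus and at 89.3 to 194 in flexor, with 4.18 to 38.6 in the rest. Acan, the large cartilage proteoglycan, was at 70.8 to 161 CPM in supraspinatus and at 24.6 to 208 in the others. Chad, a leucine-rich matrix protein, was at 5411 to 6291 CPM, and flexor 3 and Achilles 4 exceeded the highest of these at 6733 and 6372.

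The members below were a receptor and a transcription factor. Pth1r, the receptor of parathyroid hormone and its related peptide, was at 10.2, 11.3, 8.27 and 6.26 CPM against 13.0 to 35.8. Runx3, a Runt family transcription factor, was at 0.0368 to 0.178 CPM against 0.195 to 0.886, which in supraspinatus is close to the 0.0368 to 0.0485 CPM that 3 counts give. Gdf5, a joint growth factor, was lower by edgeR yet no member, since it was at 0.744 to 1.89 CPM in supraspinatus and at 0.311 to 0.700 in flexor.

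Tendon genes also split. Of 54 tested 17 were higher and 7 lower by edgeR, beside 27.4% and 28.9% over all genes. In this class 5 lay above and 1 below, and the median log2 fold change was 0.12. These are shares of 9.26% above and 1.85% below, both under the 13.4% and 5.83% over all genes. Without Achilles 1 and patellar 1, 17 were higher and 12 lower. Tppp3, Vcan, Bgn, Fn1 and Plod2 lay above, and Loxl1 lay below. This class depended on scaling: on library totals 10 were higher and 18 lower, and Tppp3 alone lay above, with 5 below.

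Tppp3, a tubulin-binding protein of tendon sheath and progenitor cells, was at 760, 750, 952 and 876 CPM. The flexor libraries held 498 to 539 CPM, Achilles 171 to 223 and patellar 95.8 to 169. The tendons form steps with no overlap between supraspinatus, flexor and the hindlimb tendons. Its log2 fold change was 1.86 ± 0.12 (SE), and 1.57 with the muscle covariate (edgeR adjusted p = 0.0026).

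Vcan, the large proteoglycan versican, was at 699, 562, 547 and 403 CPM, and flexor 2 came next at 396. Bgn, the small proteoglycan biglycan, was at 1453 to 2188 CPM against 526 to 1335. Fn1, fibronectin, was at 5307 to 7496 CPM against 1473 to 4556. Plod2, which hydroxylates collagen telopeptides ahead of crosslinking, was at 299 to 348 CPM against 31.4 to 209. Supraspinatus 4 was the lowest supraspinatus library for Vcan, Bgn and Fn1 but not for Tppp3. It held the largest muscle share of the 4, and a link to these levels was not tested.

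Of the 21 tested genes of the collagen and crosslinking list 3 were higher and 3 lower by edgeR. Over all genes the shares were 27.4% and 28.9%, so this list was called less often than genes in general. Loxl1, a lysyl oxidase of elastic fibres, was at 27.4, 38.6, 32.9 and 13.1 CPM against 58.3 to 199. Lox, the main collagen lysyl oxidase, was at 69.6 to 246 CPM, and patellar 1 at 197 lay within this range. Eln, elastin, was at 147 to 211 CPM, with flexor 3 at 205 inside it. Both were lower by edgeR (log2 -1.67 and -1.32), although neither was set apart.

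The factors that define tendon cells overlapped. Scx, scleraxis, was at 10.8 to 27.5 CPM in supraspinatus and at 5.67 to 86.4 in the others. Mkx, mohawk, was at 22.7 to 44.8 CPM against 10.1 to 46.6. Col1a1, the main tendon collagen, was at 26737 to 55429 CPM, above flexor (17206 to 29049) for most libraries and mostly under the hindlimb tendons (47099 to 117328). None of the 3 passed the test against the average of the others.

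Several mature tendon genes were higher without being set apart. Tnmd, tenomodulin, was at 421 to 1054 CPM against 195 to 935. Thbs4, a thrombospondin enriched near the muscle junction, was at 1961 to 3434 CPM against 318 to 2322. Kera, keratocan, was at 698 to 1315 CPM against 179 to 1010. Prelp, a matrix proteoglycan, was at 3281 to 4141 CPM, and flexor 3 alone exceeded this at 4407. The call for Tnmd was lost on library totals (edgeR adjusted p = 0.17).

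**Figure D3:**
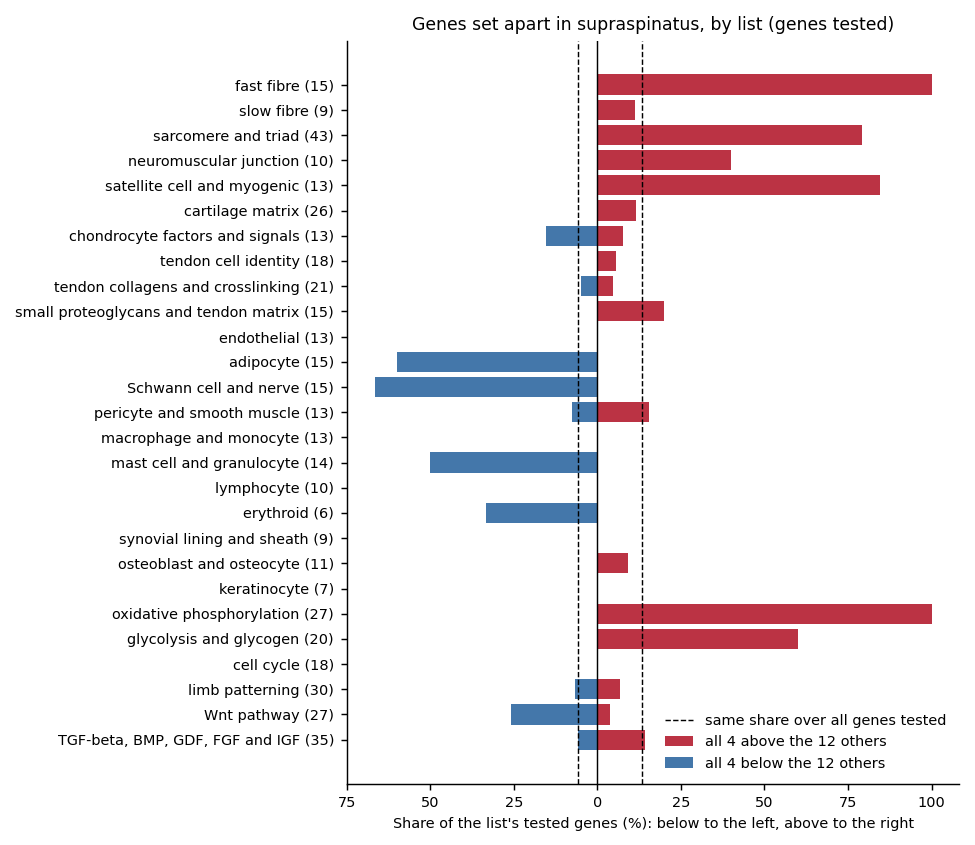
Share of each list's tested genes (%) whose 4 supraspinatus libraries lie above (right) or below (left) all 12 others, with the number tested in brackets. Dashed lines mark the shares over all genes tested, 13.4% above and 5.83% below. Fast fibre and oxidative phosphorylation genes reach 100% above, and adipocyte, Schwann cell and mast cell lists extend to the left.

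The other 3 marker genes lie outside the muscle lists. Chodl (ENSRNOG00000001915), the membrane lectin chondrolectin, was at 132, 164, 151 and 138 CPM. Achilles came next at 19.0 to 61.7 CPM, flexor held 14.9 to 33.3 and patellar 2.92 to 11.3. The log2 fold change was 2.91 ± 0.29 (SE) and stayed at 2.87 with the muscle covariate (edgeR adjusted p = 0.031).

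Zdhhc1 (ENSRNOG00000017045), of the family of palmitoyltransferases, was at 119, 113, 122 and 137 CPM. Flexor held 59.6 to 64.5, Achilles 34.1 to 39.8 and patellar 30.4 to 38.3 CPM. Its log2 fold change of 1.52 had an SE of 0.07, and was 1.32 with the covariate (edgeR adjusted p = 2.4e-04). Abi3bp (ENSRNOG00000001627), an extracellular matrix protein that binds Abi3, was at 1261, 1262, 1848 and 1379 CPM against 288 to 935. Here Achilles 4 came next and flexor was lowest, and the log2 fold change of 1.52 was 1.09 with the covariate (edgeR adjusted p = 0.067).

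**Figure D4:**
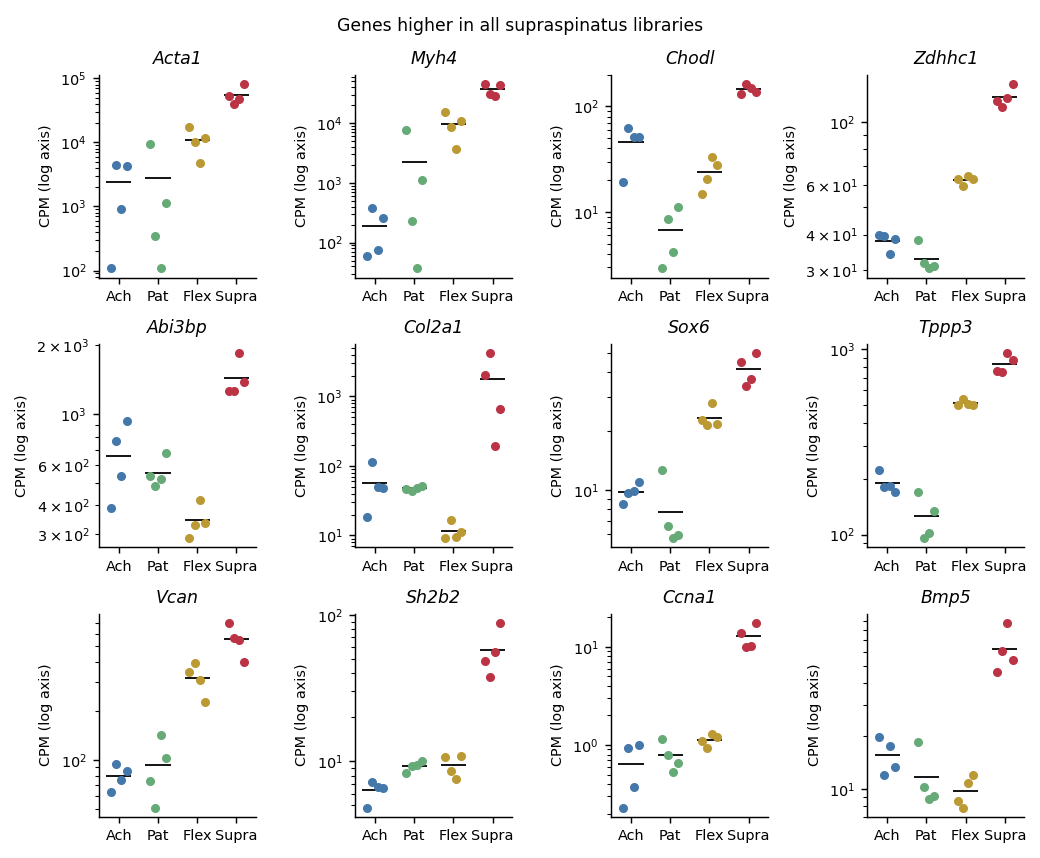
CPM of 12 genes in each library on log axes, with points for libraries and a line at the mean of each tendon (Ach, Achilles; Pat, patellar; Flex, flexor; Supra, supraspinatus). In each panel the lowest supraspinatus point lies above the highest point of the other tendons, as for Zdhhc1 at 113 against 64.5 CPM.

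Outside the 3 classes 1707 genes above had a symbol and at least 10 CPM in supraspinatus. The largest fold changes were led by Aqp4, the water channel of fast fibres and of astrocytes. It was at 98.3, 85.4, 72.8 and 177 CPM against 0.0709 to 23.6. Amy1a, an amylase, was at 11.0, 14.0, 5.16 and 21.8 CPM against at most 0.946. Vtcn1, an inhibitory ligand of T cells, was at 13.8, 20.8, 8.87 and 27.4 CPM against at most 1.77. In these 3 genes supraspinatus 3 was the lowest of its tendon and 4 the highest.

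Other genes were named for their fold change or for the width of their gap. Sh2b2, an adaptor of receptor kinases, was at 48.2, 37.6, 56.0 and 88.1 CPM against 4.84 to 10.9. Ccna1, cyclin A1, was at 13.8, 9.996, 10.1 and 17.6 CPM against 0.230 to 1.28. Ankrd1, a stretch-responsive protein of striated muscle, was at 53.6 to 86.2 CPM against 0.594 to 12.5. Myl4, the embryonic and atrial myosin light chain, was at 82.4 to 157 CPM against 1.72 to 13.7. Mapt, the microtubule protein tau, was at 59.7 to 104 CPM against 2.28 to 13.3, and Neu2, a cytosolic sialidase, at 108 to 196 against 0.766 to 26.4. In the fit with the muscle covariate, which reaches beyond the data, Sh2b2, Ccna1, Myl4 and Mapt were higher by edgeR (log2 2.40, 2.47, 1.69 and 1.28). Ankrd1 and Neu2 did not pass there.

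Growth factor genes were set apart about as often as genes in general. In the list of TGF-beta, BMP, GDF, FGF and IGF genes 8 of 35 were higher and 12 lower, with 5 above and 2 below. These are shares of 14.3% and 5.71% beside 13.4% and 5.83% over all genes. Bmp5, a bone morphogenetic protein, was at 45.9, 60.5, 87.6 and 54.3 CPM against 7.89 to 19.8. It kept a log2 fold change of 2.15 with the covariate (edgeR adjusted p = 0.0074). Mstn, myostatin, which limits muscle growth, was at 23.0 to 37.0 CPM against 0.0528 to 11.98. The members below were Inhbb, an activin subunit, at 0.209 to 0.942 CPM against 1.31 to 11.9, and Gdf10, a BMP family ligand, at 2.86 to 7.56 against 9.68 to 58.8.

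Wnt pathway genes that were set apart lay mostly below. Of 27 tested 6 were higher and 13 lower by edgeR, beside 27.4% and 28.9% over all genes. In this list 1 lay above and 7 below. These are shares of 3.70% and 25.9% beside 13.4% and 5.83% over all genes. Wif1, a secreted Wnt inhibitor, was the member above, at 798 to 1209 CPM against 14.0 to 417. Other secreted inhibitors lay below. Dkk2 was at 12.4, 16.3, 7.21 and 15.2 CPM against 34.7 to 188, and Sfrp1 at 1.42 to 3.11 against 6.52 to 32.6. Sfrp5 was at 0.194 to 1.17 CPM, with flexor at 23.1 to 76.0 and the hindlimb tendons at 1.56 to 9.77. The ligand Wnt5a was at 4.63 to 5.997 CPM and Achilles 2 lay just over it at 6.11.

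Of 30 limb patterning genes tested 9 were higher and 12 lower by edgeR, with 2 above and 2 below. These are shares of 6.67% each way beside 13.4% above and 5.83% below over all genes. Hoxc5, a HOX gene of forelimb levels, was at 6.90, 9.26, 7.37 and 4.66 CPM against 0.151 to 3.80, and flexor was lowest. Meis1, a factor of the proximal limb, was at 13.8 to 17.4 CPM against 1.97 to 11.6. Tbx4, a hindlimb factor, was at 0.956 to 1.18 CPM against 3.70 to 45.8, with flexor mostly highest at 24.2 to 45.8. A high level of Tbx4 in flexor goes against the forepaw label, while other limb genes go with it. Tbx5, the forelimb counterpart of Tbx4, was at 25.3 to 39.4 CPM in flexor, 8.41 to 14.2 in supraspinatus, 1.06 to 6.86 in patellar and 0.156 to 0.817 in Achilles. Hoxc10, a HOX gene of hindlimb levels, was at 9.95 to 16.7 CPM in the hindlimb tendons and at 0.00973 to 0.0202 in flexor, under the level of 3 counts. Pitx1, a hindlimb factor, was at 3.90 to 35.5 CPM in the hindlimb tendons and 0.413 to 0.963 in flexor, but at 7.78 to 17.5 in supraspinatus. Hoxb6 was at 0.0971 to 0.255 CPM against 0.311 to 1.43. On library totals neither Hoxc5 nor Meis1 lay above.

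Fat cell genes lay mostly below. Of 15 adipocyte genes tested 13 were lower by edgeR and 9 lay below, with a median log2 fold change of -4.19. The shares over all genes were 28.9% lower and 5.83% below. Plin1, the lipid droplet coat protein, was at 0.527, 1.15, 3.84 and 3.72 CPM against 40.2 to 432. Adipoq, the hormone adiponectin, was at 3.14, 5.03, 17.7 and 20.8 CPM against 85.7 to 2409. In both, flexor lay between supraspinatus and the hindlimb tendons, and supraspinatus 3 and 4 were above 1 and 2.

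Scd, a fatty acid desaturase, was at 4.92 to 11.3 CPM against 80.7 to 2095. Lep, leptin, was at 0.478 to 1.84 CPM against 5.07 to 384, and Pparg, the regulator of fat cell genes, at 3.27 to 10.2 against 15.6 to 134. Lpl, a lipase that muscle also makes, was at 335 to 932 CPM in supraspinatus, 131 to 218 in flexor and 569 to 2238 in the hindlimb tendons. Supraspinatus thus lay between flexor and most hindlimb libraries, and the log2 difference from the average of the others was -0.42 (edgeR adjusted p = 0.32). With the muscle covariate 9 of the 15 were still lower. Achilles 1 was the highest Achilles library for all 15.

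Schwann cells wrap nerve fibres, and their genes were also low. Of 15 tested 11 were lower, 1 was higher and 10 lay below, beside 28.9%, 27.4% and 5.83% over all genes. Mbp, myelin basic protein, was at 5.84, 5.87, 5.71 and 7.91 CPM against 40.8 to 1107. Sox10, the factor that defines the lineage, was at 0.407 to 0.614 CPM against 3.50 to 22.2. Achilles 1 gave the top value of Mbp. S100b, which other cells also express, overlapped at 175 to 316 CPM against 235 to 709. With the muscle covariate 7 of the 15 were still lower.

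Mast cell and granulocyte genes were lower in 13 of 14, and 7 lay below. Cpa3, a mast cell carboxypeptidase, was at 2.97, 3.97, 2.08 and 3.20 CPM against 12 to 117. Cma1, chymase, was at 1.93 to 4.56 CPM against 12.8 to 146, and Kit, the receptor of stem cell factor, at 8.43 to 17.1 against 19.7 to 39.2. Patellar libraries were highest for Cpa3 and Cma1, and 9 of the 14 genes were still lower with the muscle covariate. Macrophage and lymphocyte lists had no member below: 5 of 13 and 4 of 10 genes were lower by edgeR. All 6 erythroid genes were lower and 2 lay below. Of 13 endothelial genes 3 were lower and none was set apart. Over all genes tested 28.9% were lower and 5.83% lay below. The macrophage, lymphocyte and endothelial counts were not far from these shares.

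Genes of cell division fell while staying within the range of the others. Of 18 tested 17 were lower and 1 was higher by edgeR, yet none lay below all 12 libraries. Over all genes 28.9% were lower. None of the 18 was lower than in each other tendon separately, and all 18 were lower in flexor than in the average of Achilles and patellar, where 26.5% of all genes were. Achilles 1 was the lowest Achilles library for all 18.

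**Figure D5:**
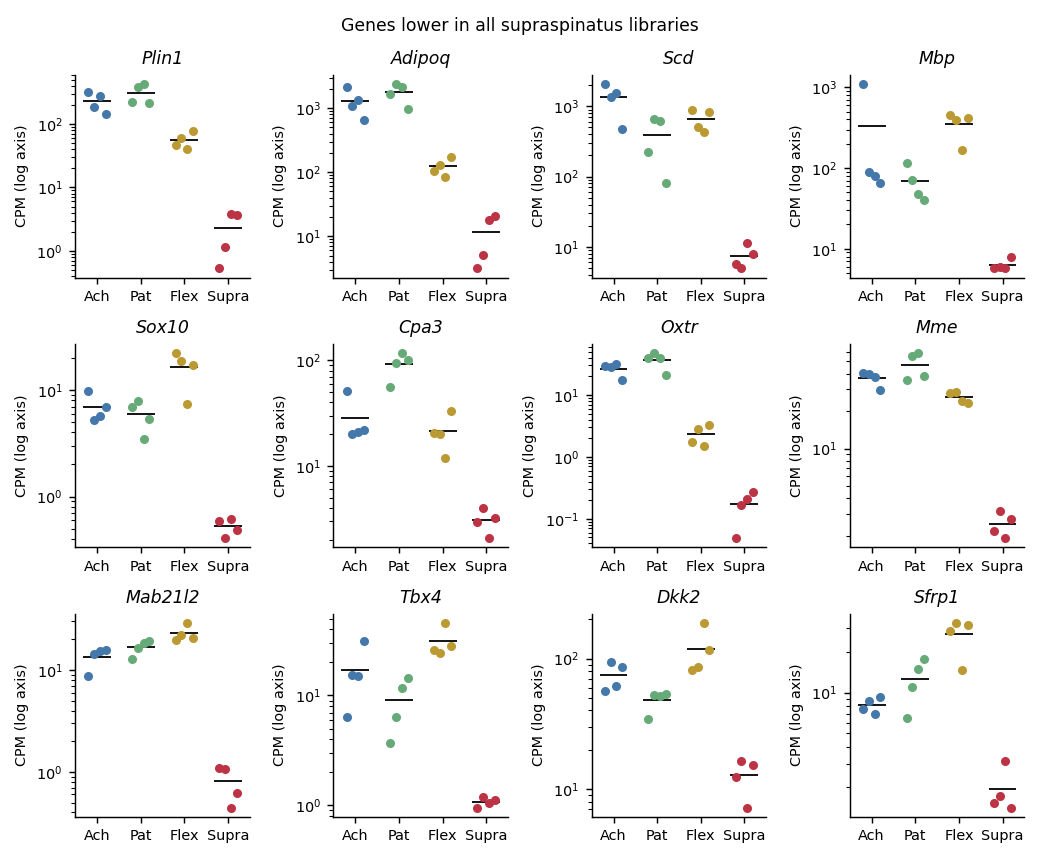
CPM of 12 genes in each library on log axes, with points for libraries and a line at the mean of each tendon (Ach, Achilles; Pat, patellar; Flex, flexor; Supra, supraspinatus). In each panel the highest supraspinatus point lies under the lowest point of the others, as for Mme at 3.20 against 23.3 CPM.

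Outside the 3 classes 545 genes below had a symbol and at least 10 CPM in the others. Mmp27, a matrix metalloproteinase, was nearly absent from supraspinatus at 0 to 0.0764 CPM, where 3 counts give up to 0.0485, and was at 1.08 to 56.9 in the others. Oxtr, the oxytocin receptor, was at 0.0490, 0.166, 0.209 and 0.275 CPM against 1.498 to 47.0, with flexor low as well. Mme, the membrane peptidase neprilysin, was at 2.21, 3.20, 1.93 and 2.72 CPM against 23.3 to 58.1. Its log2 fold change was -3.82 ± 0.19 (SE), and -3.35 with the covariate (edgeR adjusted p = 4.7e-05). Mme was thus low against all 3 tendons, which lay close together.

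Mab21l2, a developmental patterning gene, was at 0.447 to 1.10 CPM against 8.70 to 29.0. Prkar2b, a regulatory subunit of protein kinase A, was at 3.78 to 4.27 CPM against 23.6 to 174, and Necab1, a calcium-binding protein, at 1.24 to 1.68 against 13.1 to 71.8. Apod, a lipid carrier, was at 1.53 to 2.94 CPM against 24.3 to 433. The top libraries for Apod were flexor and Achilles 1.

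Genes near the edge of the rule differed little. The closest above were Vps33a, whose lowest supraspinatus library and highest other library were both at 43.1 CPM, and Fdft1 at 84.3 for each. Just outside were Farsa at 59.9 and Mafk at 78.2 against 78.3. The closest below were Mmp14 at 109.1 and Cpe at 47.2, and just outside were Cpm at 8.51 and Ahcyl2 at 18.4.

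Differences among the other tendons do not use the supraspinatus levels as such. Of the 2264 genes above, 797 were higher in flexor than in the average of Achilles and patellar by edgeR and 164 were lower, where over all genes tested 28.5% were higher and 26.5% lower. Of the 1055 genes above under every scaling, 500 were higher in flexor and 18 lower. Of the 988 genes below, 246 were higher in flexor and 317 lower. Of the 90 muscle genes 69 were higher in flexor and 1 lower, while of the 15 adipocyte genes 14 were lower and none was higher in flexor. The bound that set the genes apart was often a flexor library, so these counts are not wholly independent of the rule.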

How the data were processed

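RNA abundance was measured by sequencing total RNA in 16 libraries, 4 per tendon. The authors deposited raw whole-number counts for each gene. The submitters' processing notes list HISAT2, FastQC, edgeR and rn6. Which tool counted reads, on which annotation and with which strand setting, is not given in the sources used here, so overlapping and antisense genes cannot be told apart. A deposited table of the authors' own pairwise comparisons was not used.

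Libraries were grouped by tendon. Totals ran from 63397591 to 102491699 counts, so 3 counts correspond to 0.0266 to 0.0485 CPM, and such floors cover counting error only. Genes were filtered with filterByExpr (minimum count 10, minimum total 15), scaled by TMM and fitted in edgeR 4.0.16 on R 4.3.3 with 1 coefficient per tendon and 12 residual degrees of freedom. The supraspinatus was tested against the mean of the other 3 and against each, and the other 3 among themselves. Benjamini-Hochberg adjustment ran over all genes tested, and an adjusted p under 0.05 was called. Each SE is the absolute log2 fold change divided by the root of edgeR's F statistic. CPM is not scaled by gene length, so levels of different genes are not compared.

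The members and lists were chosen with earlier results of these data known. Of the 505 symbols in 27 lists, 478 matched the table. Des and Egr2 stand in 2 lists each. Named genes are the 5 markers, separated members of the muscle, cartilage and tendon lists, examples of the other lists, and outside them genes from the 15 per direction with the largest fold change or widest gap at 10 CPM or more. Only part of those are named, picked after their values were seen, as were list members that were not separated. The planned permutation test of the muscle share is not given, since the rule for members used the same levels. 1 gene that the naming rule selects is not reported here. No 2 replicates agreed within counting noise.

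On simulated data with 200 of 16948 genes changed in supraspinatus, edgeR recovered 40, 86, 98 and 96% of genes changed 1.5, 2, 4 and 8-fold, and 4.76% of its calls were false. Every other simulated gene had the same mean in all tendons, with no shift in the muscle share. In the real data 55.1% of genes differed among the other tendons and the muscle share shifted, so these rates do not carry over. Alternatives were other scalings, DESeq2 1.42.0, limma-voom (limma 3.58.1), other filters, a muscle covariate, the others as 1 group, a 2-fold threshold, a replicate block and each library left out. Leaving out Achilles 1 and patellar 1 together was added after the data were seen.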

Additional observations from a re-analysis of the deposited data

Results flagged for a closer look

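Within each tendon, the highest or lowest of the 4 libraries was compared with its neighbours by Dixon's ratio at its 95% critical value. Of 436 groups of 4 tested 36 exceeded it, where chance gives about 5%. Of these 18 were in patellar 1, 5 in Achilles 1 and 3 in supraspinatus 4.

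Patellar 1 was the highest patellar library in its share of muscle genes (4.59%) and in the muscle genes Acta1 (9524 CPM), Myh4 (7636 CPM), Casq1 (730 CPM), Myf6 (12.8 CPM), Myh3 (17.4 CPM) and Mef2c (221 CPM). It was also the highest for the glycolysis genes Pfkm (420 CPM), Aldoa (2912 CPM) and Ldha (565 CPM), and for Zdhhc1 (38.3 CPM), Aqp4 (4.34 CPM), Snorc (0.608 CPM), Sox6 (12.6 CPM), Mepe (0.718 CPM) and Bmp5 (18.6 CPM). It was the lowest for Dkk2 (34.7 CPM) and Tbx5 (1.06 CPM).

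Achilles 1 was the highest Achilles library for the Schwann cell gene Mbp (1107 CPM), the mast cell genes Cpa3 (50.8 CPM) and Cma1 (47.8 CPM), and for Apod (379 CPM) and Sfrp5 (9.77 CPM). Supraspinatus 4 was the highest of its tendon for Myf5 (10.4 CPM) and Mbp (7.91 CPM) and the lowest for Meis1 (13.8 CPM).

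Some of the other libraries exceeded the ratio, for 1 or 2 genes each, and the rest for none. Those that did were Achilles 2 for Myh8 (highest, 0.683 CPM), Achilles 3 for Prkar2b (highest, 77.3 CPM), and Achilles 4 for Sox9 (highest, 24.8 CPM) and Oxtr (lowest, 17.5 CPM). Patellar 3 was lowest for Hoxb6 (0.805 CPM), flexor 1 was lowest for Mmp14 (109.1 CPM) and flexor 4 for Farsa (41.1 CPM). Flexor 2 was highest for Tppp3 (539 CPM) and flexor 3 for Ibsp (3.49 CPM) and Tbx5 (39.4 CPM).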

How the results depend on the processing

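Scaling, the muscle covariate and the contrast decided most of what changed, and the cause was not tested. With library totals 2396 genes were higher than the average of the others and 9118 lower (20.8% of calls higher, beside 48.7%), 1014 were higher and 4018 lower than in each other tendon, and 1055 lay above and 3009 below. There, 1 muscle gene was lower, 10 tendon genes were higher and 18 lower, 1 tendon gene lay above and 5 below, and Mkx changed sign to log2 -0.029. With totals without the muscle counts 2 tendon genes lay above and 2 below, and 37.1% of calls were higher. The stricter filter left 1 cartilage gene below.

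With the muscle covariate 1017 genes were higher and 1042 lower, and 282 were higher and 246 lower than in each other tendon. Then 4 muscle genes were higher and 8 lower, 2 cartilage genes were higher and 1 lower, and 5 tendon genes were higher and 1 lower. Its log2 value turned negative for Acta1 (-1.60), Myh4 (-0.064), Casq1 (-0.69), Pax7 (-1.53), Myf5 (-0.64), Myod1 (-0.40), Myog (-1.41), Myf6 (-1.40), Sox9 (-0.21), Acan (-0.33), Mkx (-0.14) and Mstn (-1.43). It turned positive for Lpl (0.39) and S100b (0.25).

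Against a 2-fold threshold 1096 genes were higher and 1000 lower, and 178 were higher and 249 lower than in each other tendon, with 7 cartilage genes higher and 2 lower and 4 tendon genes higher and 1 lower. With the 12 others as 1 group 7 cartilage genes were higher, 5 were lower and 11 tendon genes were higher, and Chrna1 and Pitx1 changed sign to log2 -0.30 and -0.0025. Without Achilles 1 and patellar 1, 12 tendon genes were lower and 2 lay below. Leaving out 1 library at a time gave 1 to 3 tendon genes below, and 3 came without flexor 3. The share of muscle genes differed by 14.6 to 17.6 points in these runs.

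The fit with a replicate block gave 4608 genes higher and 4833 lower. Of 24 same-numbered pairs of libraries 11 had a correlation of their deviations over 0.1, as had 19 of 72 pairs with other numbers, and in 17 of 48 comparisons a library correlated best with its own number. The titles give rat numbers that recur in every tendon, without saying that a number is the same animal. Not every same-numbered pair passed, so the main fit took no pairing. Whether tendons shared animals is not settled by these correlations. Counts under the other settings stayed within 1.5 times. At these depths genes with a few counts per library, such as Runx3 and Mmp27 in supraspinatus, have imprecise levels.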
